A study of Homo sapiens with 24 samples.

Results

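The comparison described here set cultures exposed to IL-4+IL-13 against cultures exposed to IL-6, within batch of differentiation. The members were the 6 libraries labelled IL-4+IL-13 and the 6 labelled IL-6, which made 12 of the 24 libraries of the series, and they were paired by the batch number in their labels, 1 to 6. All cultures came from H9, 1 line of human embryonic stem cells (H9WAO9 in the labels), which had been taken through vagal neural crest spheroids to matured sensory neuron cultures. No gene was altered in any group, and the batches were repeats of the differentiation of that single line, not separate donors. IL-4 was given at 10 ng/ml together with IL-13 at 3 ng/ml, for 5 days. For the IL-6 libraries the dose and the length of exposure are not given in the sources used here. Vehicle cultures received PBS with albumin, and their 6 libraries are given only as side values. With 1 cell line and batch in the model, a p-value measures how far the difference between treatments varied from batch to batch of that line. Libraries were made from mRNA of whole cultures, which held neurons beside other cells, so that fewer cells of a type and less RNA per cell cannot be told apart in any value below.

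IL-4 and IL-13 signal through receptors that share the IL-4 receptor α chain (IL4R), paired with IL13RA1 or with the common γ chain, and act mainly through JAK kinases and the transcription factor STAT6. IL-6 binds IL6R, and the pair engages the signal transducer gp130 (IL6ST), which acts mainly through STAT3. Both routes induce members of the CISH and SOCS family, which inhibit cytokine signalling, and both factors bind palindromic DNA elements that begin with TTC and end with GAA. In barrier tissues IL-4 and IL-13 are known for type 2 inflammation, and IL-6 is known for the acute-phase response.

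Each IL-4+IL-13 library held 33797210 to 39817784 counts (median 36570712), and each IL-6 library 33529302 to 37983192 (median 35455602). Batches differed far more than treatments did. Of the variance of log2 levels over 17447 genes, 82.5% lay between batches, 5.49% between the 2 treatments and 12.0% in the remainder. Principal components 4 and 5, with 5.76% and 4.92% of the variance, separated the treatments in 6 of 6 batches. Libraries of 1 batch deviated together from the mean of their group, with a correlation between 0.287 (batch 5) and 0.863 (batch 1) over genes. For libraries of different batches the median was -0.189 and the highest 0.616, above the 0.568 of batch 4 and the 0.287 of batch 5. Taking deviations from group means pulls that median below 0, so it is no separate support for the pairing. Both libraries of batch 4 correlated best with the opposite library of batch 3, and the IL-6 library of batch 5 with that of batch 4, so counts are also given without batches 4 and 5, an alternative chosen after the data were seen. The 16 neuronal markers, the structural and synaptic genes of nerve cells, summed to between 4900 and 15140 CPM (the count scaled to a fixed library total) under IL-4+IL-13 and between 4035 and 14270 under IL-6. None of these 16 and none of 10 sensory neuron markers passed the test described next, and none of either list was absent from the table. POU4F1, the sensory transcription factor, had a log2 fold change of -0.05 (adjusted p = 0.999), and SLC17A6, the vesicular glutamate transporter of these neurons, one of 0.00 (adjusted p = 0.999, edgeR).

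Which genes differed between the cytokine exposures was tested with edgeR's quasi-likelihood test, with batch in the model and Benjamini-Hochberg adjustment over all 27637 entries tested. A gene passed at an adjusted p under 0.05, and a positive log2 fold change means a higher level under IL-4+IL-13. In all, 233 entries passed (0.843% of those tested). Of these, 157 were higher under IL-4+IL-13 (0.568%) and 76 were higher under IL-6 (0.275%). A log2 fold change beyond 1 was added to the threshold in a second count, which left 90 entries (0.326%), 64 in the first direction (0.232%) and 26 in the second (0.0941%). Of the 233, 230 had the same direction in 6 of 6 batches. Over all entries tested, 2.71% were higher under IL-4+IL-13 in 6 of 6 batches and 2.19% were lower. In 26 of the 233 the levels of the groups did not overlap at all, which over all entries tested was the case for 51 (0.185%). The median log2 fold change of all entries was -0.01. At an unadjusted p under 0.05 there were 1863 entries (6.74%), and DESeq2 passed 543 (1.96%), among them 231 of the 233. The count of 233 went to 86 without batches 4 and 5, to 85 without batch 3 and to 90 without batch 6, and 15 passed when batch was left out of the model. In the other direction, 252 passed without batch 2.

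**Figure D1:**
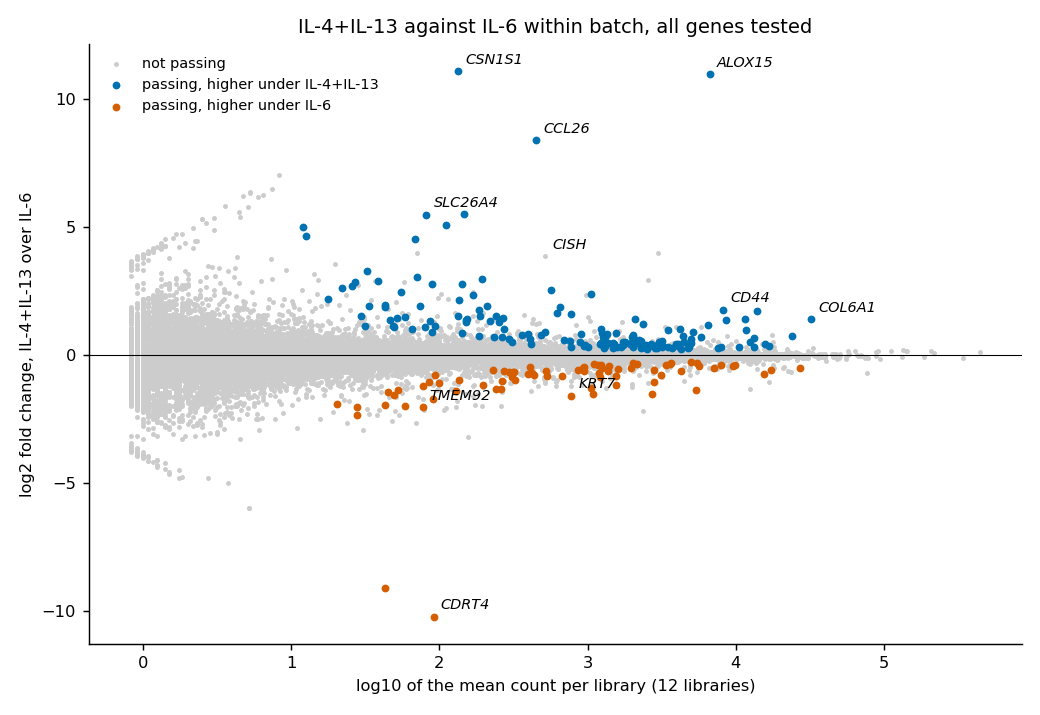
The log2 fold change of every entry tested (y axis, IL-4+IL-13 over IL-6) is plotted against the log10 of its mean count over the 12 libraries (x axis), with passing entries in colour. The 157 entries higher under IL-4+IL-13 reach a log2 fold change of 11.09, and the entries higher under IL-6 in every batch reach -2.35. The 2 points below -9 are CDRT4 and HSPE1-MOB4, which had counts in 1 library only.

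The largest difference by adjusted p was that of ALOX15, the 15-lipoxygenase gene (chromosome 17 of GRCh38.p14, 4630919 to 4641678), whose product oxidizes arachidonic and linoleic acid. Its lowest, median and highest levels were 126, 410 and 436 CPM under IL-4+IL-13, and 0.0617, 0.180 and 0.271 CPM under IL-6. Every IL-4+IL-13 library stood above every IL-6 library, and the lowest of the former was that of batch 2. The log2 fold change was 10.98 ± 0.12 (SE, n = 6 batches, adjusted p = 5.4e-12, edgeR), and the call held under each of 16 alternatives run. CCL26, the eosinophil chemokine eotaxin-3 (chromosome 7, 75769524 to 75791597), had 5.81, 19.9 and 56.4 CPM against 0, 0.0308 and 0.188, again with no overlap. Its log2 fold change was 8.39 ± 0.59 (SE, adjusted p = 0.00333), and without batches 4 and 5 the adjusted p was 0.0528.

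Among the genes with few or no reads under IL-6, CSN1S1, which encodes the milk protein α-S1-casein (chromosome 4, 69931068 to 69946574), was at 0 counts in all 6 IL-6 libraries and in all vehicle libraries. Under IL-4+IL-13 it had a total of 1597 counts over 6 libraries, with a lowest level of 0.135 CPM in batch 2, a median of 5.35 and a highest of 20.6 CPM. Against a floor of 3 counts over the group it was at least 517-fold higher under IL-4+IL-13 (adjusted p = 0.000719, edgeR). This bound takes each count as 1 fragment, which may not hold here, and it would be lower if fragments were counted more than once. The library of batch 3 held 687 of the 1597 counts, and without that batch the bound was 287-fold. Its fitted log2 fold change of 11.09 depends on the prior count and is no bound. SLC26A4, the anion exchanger pendrin (chromosome 7, 107660828 to 107717809), had 0.781, 4.08 and 7.92 CPM against 0, 0.105 and 0.188 CPM, a log2 fold change of 5.49 ± 0.46 (SE, adjusted p = 0.00100). DUOX2, an oxidase that makes hydrogen peroxide (chromosome 15, 45092650 to 45114172), had 0.512, 1.94 and 2.92 CPM against 0.185, 0.225 and 0.288 CPM. Its log2 fold change was 2.88 ± 0.28 (SE, adjusted p = 0.00114). The spans of SLC26A4 and an antisense gene, SLC26A4-AS1, overlap, and their reads cannot be told apart where the strand was not counted.

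Of 11 SERPINB genes tested, the serine protease inhibitors of clade B, 3 were higher under IL-4+IL-13 and 8 did not pass. Over all entries tested, 0.568% passed in that direction. This family was counted after its values were seen. SERPINB11 had a log2 fold change of 5.51 ± 0.64 (SE, adjusted p = 0.0188), and the groups did not overlap, with 1.83 to 10.4 CPM against 0 to 0.510 CPM. SERPINB4 had 0.539 to 7.04 CPM against 0.0537 to 0.649 CPM, a log2 fold change of 3.07 ± 0.32 (SE, adjusted p = 0.00175). SERPINB3 had a log2 fold change of 2.69 ± 0.38 (SE, adjusted p = 0.0121), at 0.278 to 2.25 CPM against 0 to 0.596 CPM. The 3 genes lie on chromosome 18, between 63637259 and 63723893. SERPINB3 and SERPINB4 are near-identical copies, so the split of reads between them is uncertain. The call of SERPINB11 was lost without batch 1, without batch 3 and without batch 5.

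The other genes with the largest differences in this direction were TMEM71, which encodes a transmembrane protein, and SMR3B, a salivary protein gene, at log2 fold changes of 5.09 ± 0.33 and 4.54 ± 0.42 (SE). TNFAIP6, which encodes the hyaluronan-binding protein TSG-6, followed at 2.98 ± 0.26 (SE, adjusted p = 0.00104). TNFAIP6 ranged from 1.80 to 16.5 CPM under IL-4+IL-13 and from 0.215 to 2.41 CPM under IL-6, so the groups overlapped, while within each batch the former was the higher. TMEM71 and SMR3B did not overlap between groups, at 2.40 to 9.88 against 0.0541 to 0.389 CPM and at 1.13 to 5.31 against 0 to 0.349 CPM.

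**Figure D2:**
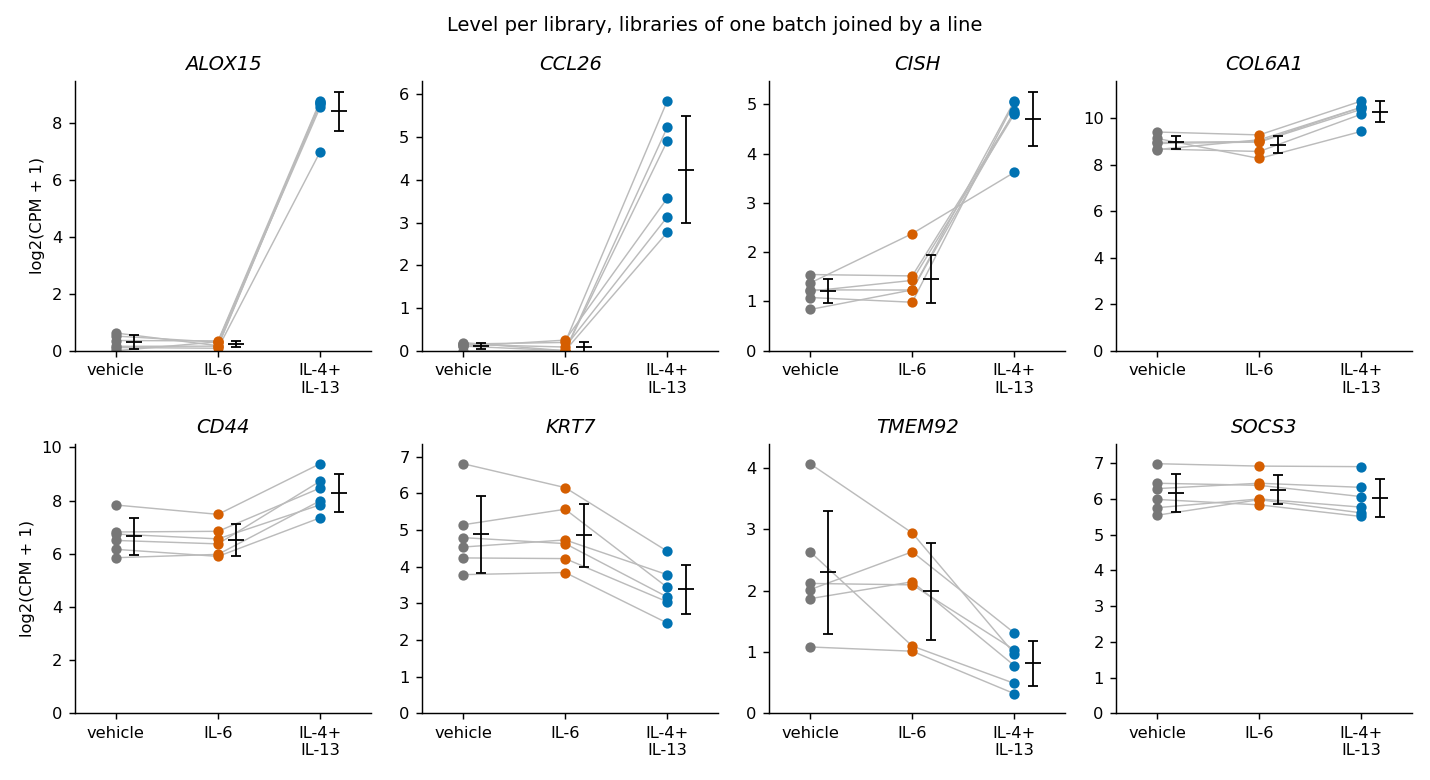
Levels of 8 genes as log2(CPM + 1) in each vehicle, IL-6 and IL-4+IL-13 library, with the libraries of a batch joined by a grey line and the mean ± SD of 6 libraries in black. ALOX15 and CCL26 stand below 1 in every vehicle and IL-6 library and at 2.77 or above in every IL-4+IL-13 library, whereas KRT7 and TMEM92 are lower under IL-4+IL-13 in 6 of 6 batches and SOCS3 differs little.

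Each cytokine was also set against vehicle in a fit of all 24 libraries. Both of these contrasts use the same vehicle libraries and are therefore only given side by side. Against vehicle, 186 of 29377 entries passed under IL-4+IL-13 (0.633%; 574 or 1.95% with DESeq2), and 0 passed under IL-6 by edgeR. For IL-6, 1400 entries had an unadjusted p under 0.05 (4.77%), and DESeq2 passed 132 (0.449%). Of the 157 entries higher under IL-4+IL-13 in the direct comparison, 74 also passed against vehicle. Of the 76 entries higher under IL-6, 0 passed for IL-6 against vehicle, which follows from the 0 passing over all entries and says nothing about these 76. Against vehicle, ALOX15 stood at a log2 fold change of 10.58 with IL-4+IL-13 (adjusted p = 1.3e-10, edgeR) and at -0.41 with IL-6 (adjusted p = 0.928). TMEM92, the gene named first among those higher under IL-6, stood at -2.49 with IL-4+IL-13 (adjusted p = 0.00113) and at -0.52 with IL-6 (adjusted p = 0.850). For KRT7, the same values were -1.58 (adjusted p = 9.0e-05) and -0.03 (adjusted p = 0.990). Both genes were thus lower with IL-4+IL-13 than in vehicle cultures, and neither passed for IL-6. CISH stood at 4.40 with IL-4+IL-13 (adjusted p = 7.1e-06) and at 0.41 with IL-6 (adjusted p = 0.866).

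**Figure D3:**
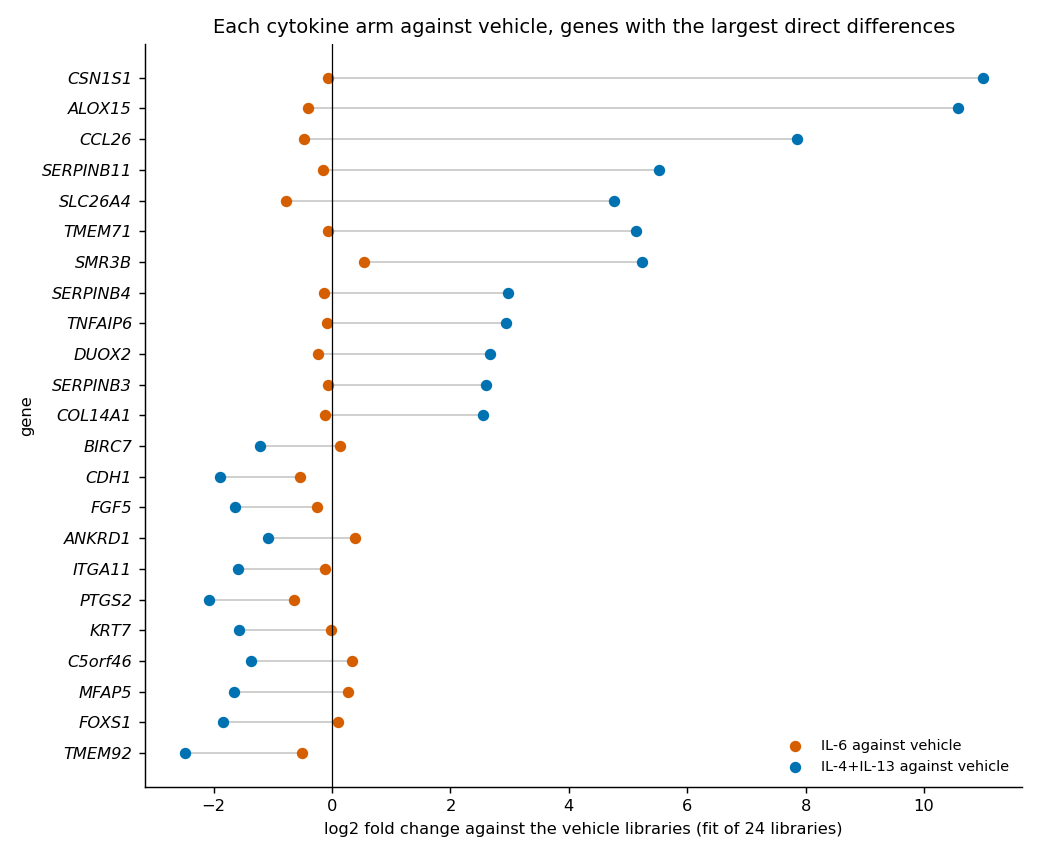
Log2 fold change of each cytokine arm against vehicle (x axis, fit of 24 libraries) for 12 genes higher under IL-4+IL-13 and 11 higher under IL-6 with the largest direct differences (y axis). The IL-6 points lie between -0.78 and 0.53, and the IL-4+IL-13 points reach 10.99 and -2.49.

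No receptor subunit, JAK kinase or STAT factor of either route passed. IL4R had 15.5, 37.3 and 44.0 CPM under IL-4+IL-13 (lowest, median, highest) and 15.2, 40.6 and 61.4 CPM under IL-6, with a log2 fold change of -0.16 ± 0.09 (SE, adjusted p = 0.890). IL13RA1 was at -0.21 ± 0.07 (SE, adjusted p = 0.376), IL6ST at -0.05 ± 0.08 (adjusted p = 0.999) and IL6R at -0.01 ± 0.16 (adjusted p = 0.999). The 11 entries for JAK kinases and STAT factors had a median of -0.02 and the 9 for IL-6 family receptors one of -0.05. The 4 IL-4 and IL-13 receptor subunits had a median of 0.43, with IL13RA2 (described next) and IL2RG, the common γ chain, on the positive side. IL2RG was near 0, with averages of 0.0697 CPM under IL-4+IL-13 and 0.0281 CPM under IL-6, and its log2 fold change was 1.02 ± 1.59 (SE, adjusted p = 0.999), higher in 2 and lower in 2 of 6 batches. STAT6 had a log2 fold change of -0.06 ± 0.06 and STAT3 one of -0.03 ± 0.06 (SE, adjusted p = 0.999 each). The level of STAT6 lay between 64.6 and 87.6 CPM under IL-4+IL-13 and between 53.6 and 88.5 CPM under IL-6. The sign of IL6R, IL6ST and STAT3 turned under some alternatives.

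IL13RA2, a receptor that binds IL-13 with little signalling of its own, had 70.0, 105 and 380 CPM against 19.3, 49.9 and 228 CPM. The highest library of each group was that of batch 1, and within each batch the level was higher under IL-4+IL-13. Its log2 fold change of 1.12 ± 0.19 (SE) missed the threshold (adjusted p = 0.0787, edgeR), whereas DESeq2 gave an adjusted p of 7.4e-11 and the fit of 24 libraries gave 0.00175. CISH, a feedback inhibitor of STAT signalling (chromosome 3, 50606489 to 50611774), also missed it, at 3.86 ± 0.54 (SE, adjusted p = 0.0573). The groups did not overlap. Its level was 32.6, 11.3, 28.1, 27.5, 31.9 and 26.9 CPM in batches 1 to 6 under IL-4+IL-13, and 1.35, 4.19, 1.35, 1.87, 0.979 and 1.69 CPM under IL-6. Batch 2 held both the lowest IL-4+IL-13 library and the highest IL-6 library. Without batch 2 the log2 fold change was 4.34 with an adjusted p of 4.0e-05 (edgeR). Leaving out any other single batch gave 0.149 to 0.228, and DESeq2 passed the gene with all batches (adjusted p = 5.4e-14). The annotated span of CISH overlaps that of MAPKAPK3. SOCS1, another inhibitor, had a log2 fold change of 0.43 ± 0.14 (SE, adjusted p = 0.347) and was higher under IL-4+IL-13 in 6 of 6 batches. SOCS3, the inhibitor most tied to STAT3, was lower in 6 of 6 batches at -0.24 ± 0.06 (SE, adjusted p = 0.109), where DESeq2 gave 0.0225. None of the 17 entries of the CISH, SOCS and PIAS list passed, and their median log2 fold change was 0.00.

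Promoter letters are shown for 6 of the named genes, chosen because they held a match to the patterns that STAT factors are known to bind. A promoter was found for 40 of the 60 named genes. Of these, 9 held a match, the others being CFI, TYRP1 and CDH26, and 31 held none. The patterns searched were TTCNNNGAA, with 3 bases between TTC and GAA, and TTCNNNNGAA, with 4, where N is any base. Each pattern is its own reverse complement, so that a match holds for both strands, and matches of the 2 patterns may overlap. Promoters were taken from RefSeq (GRCh38.p14), from 250 bases before to 50 after each start. The windows below run 5′ to 3′ on the strand of the gene, with the matches in capitals. They lie at chr4:69930897-69930993 on the plus strand for CSN1S1, at chr3:50611863-50612024 on the minus strand for CISH, at chr7:77199865-77199904 on the minus strand for FGL2, at chrX:78327739-78327778 on the minus strand for CYSLTR1, at chr13:37598837-37598875 on the minus strand for POSTN and at chr15:68432185-68432224 on the minus strand for ITGA11.
CSN1S1: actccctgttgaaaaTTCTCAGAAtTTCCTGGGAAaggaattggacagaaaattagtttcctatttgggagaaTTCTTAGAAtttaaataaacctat
CISH: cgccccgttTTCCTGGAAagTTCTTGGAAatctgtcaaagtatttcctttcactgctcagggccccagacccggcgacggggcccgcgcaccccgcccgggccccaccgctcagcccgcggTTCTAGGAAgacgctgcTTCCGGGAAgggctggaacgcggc
FGL2: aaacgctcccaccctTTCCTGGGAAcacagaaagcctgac
CYSLTR1: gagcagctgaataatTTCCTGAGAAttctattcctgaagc
POSTN: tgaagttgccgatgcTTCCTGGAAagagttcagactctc
ITGA11: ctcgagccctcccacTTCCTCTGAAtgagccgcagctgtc
CISH held 4 matches with a spacing of 3 and 0 with a spacing of 4, whereas FGL2, CYSLTR1 and ITGA11 held 1 match with a spacing of 4. CSN1S1 held 2 matches with a spacing of 3 and 1 with a spacing of 4. POSTN held 1 match with a spacing of 3. ITGA11 was lower under IL-4+IL-13, and the other passing genes shown were higher. Of the 203 promoters found for 115 of the 156 symbols higher under IL-4+IL-13, 10.3% held the spacing of 3 and 8.37% the spacing of 4. Of the 65 promoters found for 43 of the 68 symbols higher under IL-6, 4.62% and 6.15% did. Over the 20034 promoters of tested genes these shares were 6.42% and 5.21%, and over all 35116 promoters of the reference they were 7.66% and 6.44%. A match of letters is a description and was not tested as a binding site, and no promoter of ALOX15 or COL6A1 was analysed here.

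Genes known to respond to IL-4 and IL-13 were described as a list of 36, written with earlier results of these data known. Its counts and median therefore describe the members and are no independent support for a response. Of the 29 entries tested, 8 were higher under IL-4+IL-13, 0 were higher under IL-6 and 21 did not pass, at a median log2 fold change of 1.12 against -0.01 over all entries. The shares of all entries that passed, 0.568% higher under IL-4+IL-13 and 0.275% higher under IL-6, are the background for this count and for those of the lists that follow. In 14 of the 29 the level was higher in 6 of 6 batches. Beside ALOX15, CCL26, SLC26A4, SERPINB3 and SERPINB4, those that passed were FGL2, CDH26 and POSTN. FGL2, which encodes a secreted fibrinogen-like protein, had 3.78 to 9.58 CPM against 0.617 to 3.08 CPM without overlap, and a log2 fold change of 2.16 ± 0.19 (SE, adjusted p = 0.000719). CDH26, a cadherin gene, had a log2 fold change of 1.13 ± 0.18 (SE, adjusted p = 0.0188), a call lost without batch 1, 3, 4 or 6. Against vehicle, CDH26 stood at 0.60 with IL-4+IL-13 (adjusted p = 0.496, edgeR) and at -0.52 with IL-6 (adjusted p = 0.85). POSTN encodes periostin, a matrix protein (chromosome 13, 37562585 to 37598768). The level spread widely over batches, from 140 to 1216 CPM against 26.5 to 491 CPM. Its log2 fold change of 1.73 ± 0.24 (SE) passed narrowly (adjusted p = 0.0489), and the call was lost on leaving out any single batch. Set against vehicle, POSTN did not pass with IL-4+IL-13 (log2 fold change 1.52, adjusted p = 0.224, edgeR) or with IL-6 (-0.15, adjusted p = 0.967). CCL11, CCL22, CLCA1, CD209 and CLEC10A had either 0 counts in the 12 libraries or no entry under that symbol. Without batches 4 and 5, 4 of the 8 still passed.

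Genes known to respond to IL-6 and STAT3, a list of 35, showed no common direction. Of 33 entries tested, 0 were higher under IL-6, and 1 was higher under IL-4+IL-13, at a median log2 fold change of -0.03. That 1 gene was CCL2, the monocyte chemokine MCP-1, with 72.8 to 254 CPM against 51.8 to 206 CPM and a log2 fold change of 0.52 ± 0.07 (SE, adjusted p = 0.00859). Against vehicle, CCL2 stood at 0.58 with IL-4+IL-13 (adjusted p = 0.209, edgeR) and at 0.03 with IL-6 (adjusted p = 0.983). Its direct call was lost in the fit of 24 libraries (adjusted p = 0.400, edgeR). The following members were chosen after their values were seen. SERPINA3, the acute-phase protein α-1-antichymotrypsin, had 67.3 to 1154 CPM under IL-4+IL-13 and 112 to 1509 CPM under IL-6, with the highest library of each group in batch 1. It was lower under IL-4+IL-13 in 6 of 6 batches, at a log2 fold change of -1.06 ± 0.18 (SE), which missed the threshold (adjusted p = 0.0756, edgeR; 1.2e-05 by DESeq2). Against vehicle, SERPINA3 stood at -1.23 with IL-4+IL-13 (adjusted p = 0.00395, edgeR) and at -0.15 with IL-6 (adjusted p = 0.910). A2M and JUNB, a protease inhibitor and a transcription factor, were also lower in 6 of 6 batches, at -0.31 (adjusted p = 0.0572) and -0.37 (adjusted p = 0.116). FGG and an entry of SAA1, both acute-phase genes, were higher under IL-4+IL-13 in 6 of 6 batches, at 2.89 (adjusted p = 0.187) and 2.84 (adjusted p = 0.0856).

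Of the ligands of the IL-6 family, 9 entries were tested, at a median log2 fold change of -0.77, and 1 passed. CLCF1, a cytokine of this family (chromosome 11, 67364168 to 67374177), had 1.25 to 3.07 CPM against 2.23 to 5.31 CPM and a log2 fold change of -0.77 ± 0.13 (SE, adjusted p = 0.0271). LIF, which signals through the same gp130 chain and was chosen after its values were seen, had 15.9 to 35.8 CPM under IL-4+IL-13 against 20.4 to 135 CPM under IL-6. It was lower in 6 of 6 batches, at -1.22 ± 0.20 (SE, adjusted p = 0.0713, edgeR). IL11 was at -0.83 ± 0.18 (SE, adjusted p = 0.140). The IL6 gene itself was at 1.52 ± 0.47 (SE, adjusted p = 0.433) and higher under IL-4+IL-13 in 5 of 6 batches. The call of CLCF1 was lost on leaving out batch 1, 3, 4, 5 or 6.

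**Figure D4:**
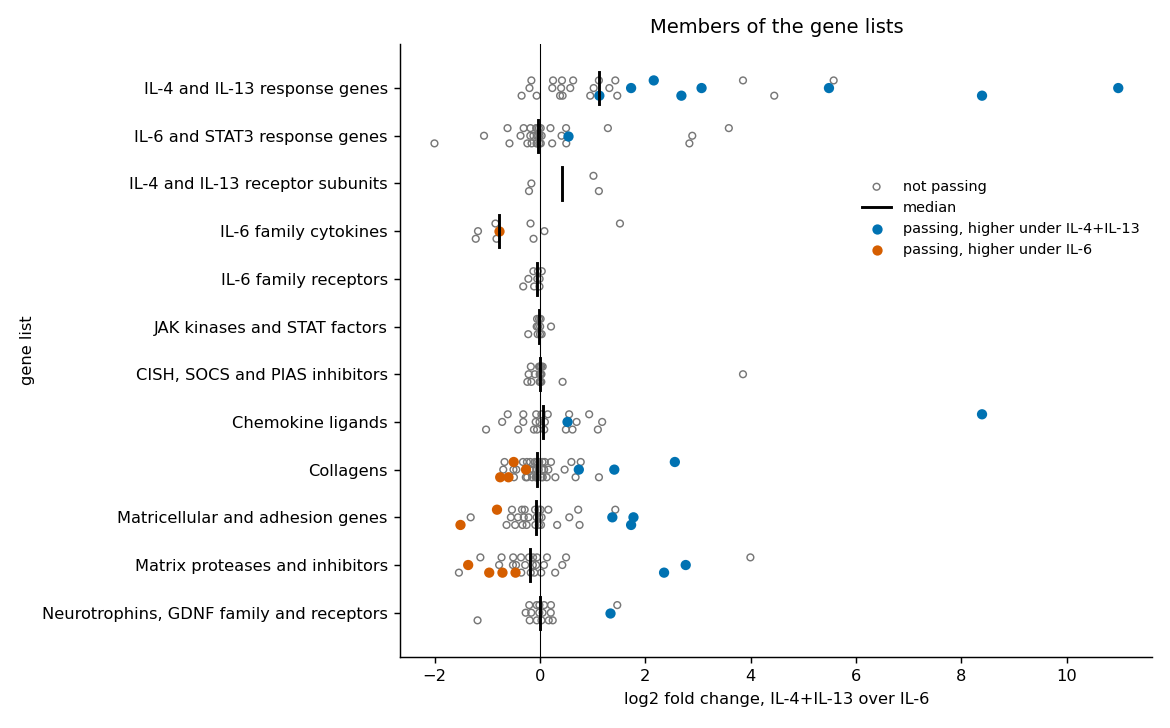
Log2 fold change (x axis, IL-4+IL-13 over IL-6) of every tested member of 12 gene lists (y axis), with filled points for passing members and a black bar at the list median. The IL-4 and IL-13 response list has its median at 1.12 and 8 passing members, all to the right, and the IL-6 family receptor and the JAK and STAT lists have medians of -0.05 and -0.02. The 4 IL-4 and IL-13 receptor subunits have a median of 0.43 with 0 passing. The lists were written with earlier results of these data known.

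Leukotriene and prostaglandin genes passed in both directions. CYSLTR1, the first cysteinyl leukotriene receptor (X chromosome, 78271468 to 78327611), had 1.45, 5.33 and 22.2 CPM against 0.247, 1.62 and 10.1 CPM. Batch 1 was the highest in both groups, and within each batch the level was higher under IL-4+IL-13, at a log2 fold change of 1.78 ± 0.21 (SE, adjusted p = 0.00452; 0.0755 without batches 4 and 5). PTGS2, the inducible cyclooxygenase, was lower, with 0.130 to 1.41 CPM against 0.493 to 3.38 CPM and a log2 fold change of -1.57 ± 0.30 (SE, adjusted p = 0.0459). PTGS2 lost its call on leaving out any single batch. Of the 33 entries of this list, 2 were higher under IL-4+IL-13 (ALOX15 and CYSLTR1), 1 was higher under IL-6 and 30 did not pass, at a median of -0.04. CYSLTR1 was also the 1 passing entry of 22 on the list of itch and type 2 immune receptors. Among 24 chemokine entries, 2 passed, CCL26 and CCL2.

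Of the 45 collagen entries tested, 3 were higher under IL-4+IL-13, 4 were higher under IL-6 and 38 did not pass, at a median of -0.06. Over all entries, 0.568% and 0.275% passed in these directions. COL6A1, the α1 chain of the microfibrillar collagen VI (chromosome 21, 45981770 to 46005048), had 690, 1373 and 1707 CPM against 307, 506 and 621 CPM with no overlap. Its log2 fold change was 1.41 ± 0.06 (SE, adjusted p = 5.8e-06), and it passed under each of 16 alternatives run. COL6A2 encodes a partner chain and lies on the same chromosome, from 46098112 to 46132848. Its log2 fold change was 0.74 ± 0.05 (SE, adjusted p = 0.000103), with 465 to 1044 CPM against 272 to 627 CPM. Against vehicle, COL6A2 stood at 0.54 with IL-4+IL-13 (adjusted p = 0.245, edgeR) and at -0.21 with IL-6 (adjusted p = 0.855). Its direct call was lost in the fit of 24 libraries (adjusted p = 0.0569, edgeR). COL14A1, a collagen associated with fibrils, had a median of 25.4 CPM against 5.02 CPM, with no overlap, and a log2 fold change of 2.56 ± 0.21 (SE, adjusted p = 0.00276). The basement membrane collagens COL4A1 and COL4A2 were lower, at -0.76 ± 0.11 (SE, adjusted p = 0.0220) and -0.60 ± 0.09 (SE, adjusted p = 0.0141). COL4A1 (chromosome 13, 110148963 to 110307157) ranged from 152 to 450 CPM under IL-4+IL-13 and from 270 to 1044 CPM under IL-6. COL2A1, the main collagen of cartilage, and COL26A1 were lower as well, at -0.50 ± 0.09 and -0.27 ± 0.05 (SE). The 3 that were higher kept their calls on leaving out any single batch, and each of the 4 that were lower lost its call without at least 3 of the batches taken singly. Without batches 4 and 5, COL6A1 and COL6A2 still passed.

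Matricellular and adhesion genes likewise passed both ways, with 3 of 32 entries higher under IL-4+IL-13 (POSTN, CD44 and TNC) and 2 higher under IL-6. CD44, the hyaluronan receptor (chromosome 11, 35139171 to 35232402), had 162, 303 and 667 CPM against 58.8, 87.5 and 178 CPM, and a log2 fold change of 1.78 ± 0.14 (SE, adjusted p = 0.00218). The groups overlapped across batches but not within any batch. TNC, which encodes the matrix protein tenascin-C, had 218 to 527 CPM against 94.9 to 201 CPM with no overlap, at 1.37 ± 0.10 (SE, adjusted p = 0.000287). ITGA11, an integrin that binds collagen, was lower, with 18.4 to 61.3 CPM against 56.8 to 216 CPM and a log2 fold change of -1.51 ± 0.21 (SE, adjusted p = 0.0441), a call lost on leaving out any single batch. LOXL2, an enzyme that crosslinks collagen, was at -0.82 ± 0.11 (SE, adjusted p = 0.0147) and lost its call without batch 1, 3, 4 or 6.

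Matrix proteases and their inhibitors had 2 of 30 entries higher under IL-4+IL-13, both of MMP28, and 4 higher under IL-6, at a median of -0.19. MMP28, the metalloprotease epilysin, is listed as 2 entries with log2 fold changes of 2.77 ± 0.40 and 2.36 ± 0.26 (SE, adjusted p = 0.0271 and 0.00408), among which the reads may have been split. PLAUR, the urokinase receptor, was lower under IL-4+IL-13, at -0.71 ± 0.13 (SE, adjusted p = 0.0409) and PLAT, the tissue plasminogen activator, at -0.46 ± 0.08 (SE, adjusted p = 0.0346). ADAMTS16, a secreted protease, was at -0.96 ± 0.17 (SE, adjusted p = 0.0293). PLAT and ADAMTS16 lost their calls without batch 1, 3, 4, 5 or 6, and PLAUR without batch 1, 3, 5 or 6. The entry of MMP28 at 2.77 lost its call without batch 1, 3 or 4.

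By the naming rule (a mean count of at least 10, 1 direction in 6 of 6 batches, a symbol held by 1 entry), the 12 genes with the largest differences in favour of IL-6 ran from TMEM92 at -2.02 to BIRC7 at -1.35. TMEM92, which encodes a transmembrane protein (chromosome 17, 50271406 to 50281485), had 0.250, 0.841 and 1.48 CPM under IL-4+IL-13 against 1.02, 3.35 and 6.68 CPM under IL-6, and its log2 fold change was -2.02 ± 0.20 (SE, adjusted p = 0.00117). KRT7, a keratin of simple epithelia (chromosome 12, 52233243 to 52255853), had 4.52, 8.94 and 20.5 CPM against 13.4, 24.7 and 70.5 CPM, at -1.58 ± 0.14 (SE, adjusted p = 0.00200). CDH1, which encodes E-cadherin, was at -1.39 ± 0.16 (SE, adjusted p = 0.00276), with 0.377 to 3.83 CPM against 1.26 to 10.4 CPM. MFAP5, a gene of the elastic microfibrils, did not overlap between groups, at 0.138 to 0.834 CPM against 1.01 to 2.79 CPM. Among the others were FOXS1, a forkhead factor gene, C5orf46, PTGS2, ITGA11, ANKRD1, FGF5 and BIRC7. ANKRD1, a gene of the response to mechanical load, was at -1.50 ± 0.19 (SE, adjusted p = 0.0220). KRT7, TMEM92, CDH1 and C5orf46 kept their calls on leaving out any single batch, whereas FGF5, PTGS2 and ITGA11 lost theirs on leaving out any. MFAP5 lost its call without batch 1, 2, 3 or 6, and ANKRD1 without batch 1, 2, 4 or 6. FOXS1 lost its call without batch 4 or 6, and BIRC7 without batch 3 or 4.

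**Figure D5:**
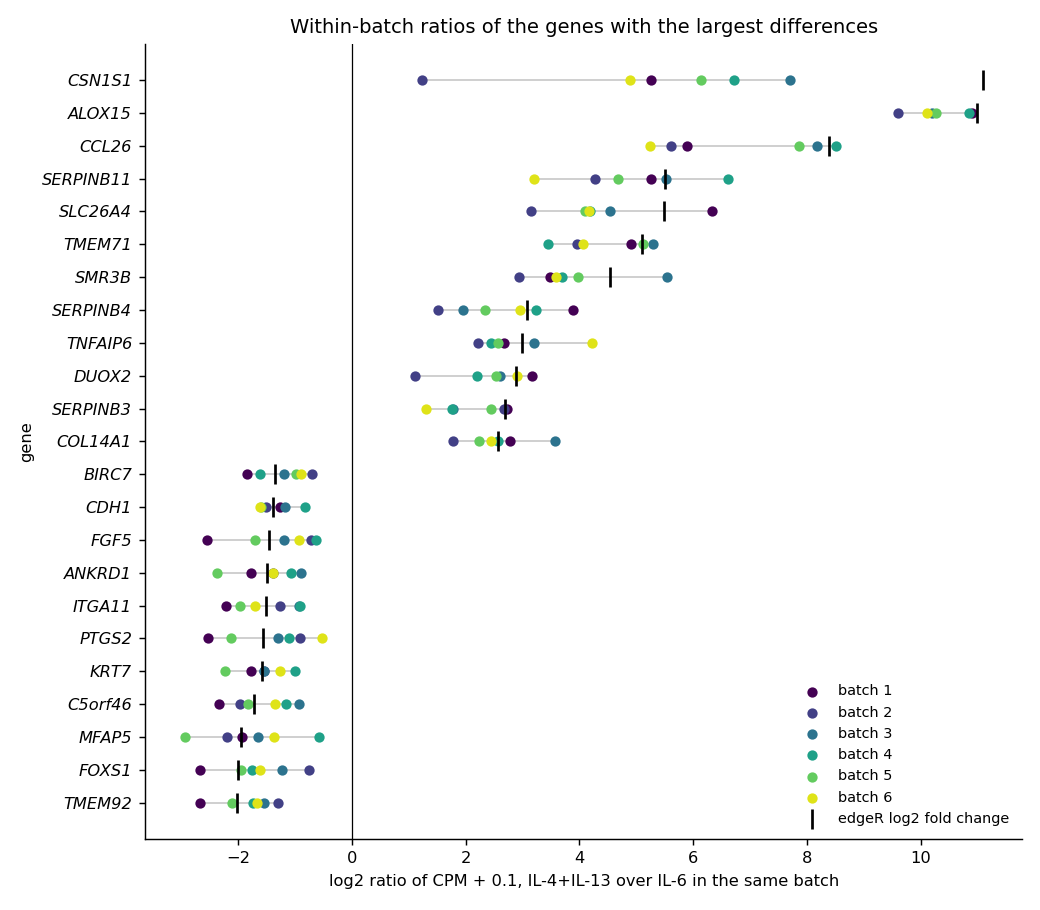
Log2 ratio of CPM + 0.1 between the IL-4+IL-13 and the IL-6 library of each batch (x axis) for 12 genes higher under IL-4+IL-13 and 11 higher under IL-6 with the largest differences (y axis), with the edgeR estimate as a black tick. All 6 ratios of each gene lie on 1 side of 0, and those of ALOX15 lie between 9.61 and 10.9.

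On each list of genes of neuronal function 0 or 1 entry passed, where 0.843% of all entries did. With lists of 17 to 32 entries, such counts cannot be told from that share. PMCH, HTR2C and CCKAR, which passed outside these lists, are given at the end. NTF3, which encodes the growth factor neurotrophin-3 (chromosome 12, 5430332 to 5495299), had 1.86 to 6.36 CPM against 0.570 to 2.73 CPM and a log2 fold change of 1.32 ± 0.18 (SE, adjusted p = 0.00778). It was the 1 passing entry of 18 on the list of neurotrophins, GDNF family and receptors. KCNJ2, an inward rectifier potassium channel gene (chromosome 17, 70169532 to 70180044), had 9.64 to 35.2 CPM against 4.29 to 13.7 CPM and a log2 fold change of 1.64 ± 0.14 (SE, adjusted p = 0.000869). It was the 1 passing entry of 32 on the list of sensory channels and receptors, on which TRPV1, the capsaicin receptor, was at 0.10 (adjusted p = 0.999). FLRT3, an adhesion molecule gene, was at 0.69 ± 0.09 (SE, adjusted p = 0.00657) and was the 1 passing entry of 18 on the list of nerve injury and regeneration. None of 17 neuropeptide, 19 sensory transcription factor, 25 mitosis or 59 interferon and MHC class I entries passed. Of 43 acute-phase and complement entries 1 passed, CFI, the complement factor I gene, at 1.02 ± 0.10 (SE, adjusted p = 0.00276). CFI stood at 0.52 with IL-4+IL-13 against vehicle (adjusted p = 0.644, edgeR) and at -0.46 with IL-6 (adjusted p = 0.85). Of 24 immediate-early entries 4 passed, all of them entries of the single gene IER3, an early response gene, with log2 fold changes from -0.66 to -0.60, whose reads may have been split among copies. The IER3 entry with the most reads, at averages of 33.4 and 51.0 CPM, did not pass (log2 fold change -0.58, adjusted p = 0.0713). Without batches 4 and 5, KCNJ2 still passed, and NTF3, FLRT3, CFI, CCL2 and the IER3 entries did not.

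Markers of other cell types were followed beside these results. The 6 smooth muscle markers (7 entries) summed to 355 to 799 CPM under IL-4+IL-13 and to 531 to 1377 CPM under IL-6, lower in 6 of 6 batches, with 0 entries passing. Their part in the lower levels of ITGA11, COL4A1 and COL4A2 was not tested. The 5 cartilage markers summed to 250 to 456 CPM against 337 to 485 CPM, lower in 6 of 6 batches, and COL2A1 was the member that passed. The 10 fibroblast markers summed to 3217 to 8357 CPM against 4086 to 9569 CPM, lower in 5 of 6 batches, with 0 passing. The 6 endothelial markers summed to 28.6 to 159 CPM against 13.2 to 85.4 CPM, higher in 6 of 6 batches. KDR, the VEGF receptor, gave the largest part of that sum, at 24.4 to 156 CPM against 8.30 to 81.7 CPM, and passed at 1.22 ± 0.18 (SE, adjusted p = 0.0462), while PECAM1 averaged 0.505 and 0.374 CPM and CDH5 0.464 and 0.680 CPM. KDR lost its call without batch 1, 2, 3, 4 or 6. It stood at 0.47 with IL-4+IL-13 against vehicle (adjusted p = 0.649, edgeR) and at -0.73 with IL-6 (adjusted p = 0.85). TYRP1, a pigment enzyme, passed among 6 melanocyte markers at 0.84 ± 0.12 (SE, adjusted p = 0.0141), and their sum was higher in 4 of 6 batches. Its call was lost without batch 3. CDH1 was the 1 passing entry of 6 for epithelium, where KRT8 and KRT18 were at -0.08 each and the sum was higher under IL-4+IL-13 in 3 of 6 batches. Of the markers of cholinergic neurons, Schwann cells and satellite glia, blood cells, pluripotent cells and skeletal muscle, 0 passed.

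The test also passed 3 entries that did not have 1 direction in 6 batches, of which 2 carried the most negative fitted values, -10.21 for CDRT4 (adjusted p = 0.00778) and -9.08 for HSPE1-MOB4 (adjusted p = 0.0188). They are described after their values were seen. CDRT4 had 1097 counts in the IL-6 library of batch 3 and 0 in the other 11 libraries. In that same library the readthrough entry TVP23C-CDRT4, which overlaps it, was at 0, against 848 to 1284 counts in the other IL-6 libraries and 893 to 1119 under IL-4+IL-13. HSPE1-MOB4, another readthrough entry, had 515 counts in the IL-6 library of batch 3 and 0 in the other 11. Its neighbours MOB4 and HSPE1 had 2588 and 1803 counts there, and between 1803 and 3049 in the 12 libraries. Neither entry passed with DESeq2 (adjusted p = 1 each). The remaining 1 was NewGene_2613, an unnamed locus, at a fitted 5.02.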

How the data were processed

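Whole cultures were profiled by mRNA sequencing on an Illumina NovaSeq. Per the labels, reads were trimmed with Trimmomatic 0.30 and the build was GRCh38.p14, a human build that the same label calls a mouse reference, and the authors used DESeq2. The aligner, the counter and the strand setting are not given in the sources used here. The deposited values are raw counts per gene, with no normalization and no pooled libraries. The table held 36468 entries, of which 13161 were unnamed loci (NewGene) and 4886 shared a symbol. Counts of 2 (30094 values) outnumbered counts of 1 (11894 values), so a count may not stand for 1 fragment.

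Entries with a total count of at least 10 over the 12 libraries were tested with edgeR 4.0.16 in R 4.3.3 (quasi-likelihood with robust spread, TMM factors, batch and treatment in the model, Benjamini-Hochberg over 27637 entries). The SE is the log2 fold change divided by the root of the F statistic. CPM used TMM factors over all 24 libraries, and ratios within a batch used CPM + 0.1. DESeq2 1.42.0 was an alternative, as were other scalings and filters, the fit of 24 libraries, no batch term and each batch left out. Treating the batch number as a pairing rested on the labels. The correlation was over 0.1 in all 6 batches, but libraries of different batches reached 0.616, so that cut could not test the labels. The test was tried on simulated data for this comparison, with 200 changed among 27637 genes. The 200 were drawn from genes with a mean count of at least 10, so recovery at lower counts was not measured. At a log2 fold of 1 edgeR recovered 68% of the changed genes, and at 2 it recovered 95%. It also made 21 false calls. As a share of all calls made, these exceeded what an adjusted p threshold of 0.05 allows on average. The counts of passing entries may therefore hold more false calls than that threshold implies. On the same simulated data DESeq2 recovered 67% and 94% of the changed genes and made 39 false calls. A gene that passed with DESeq2 but not with edgeR is therefore the less certain call.

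The text names up to 12 genes of each direction with the largest log2 fold change among those that passed, with a mean count of at least 10, 1 direction in 6 of 6 batches and a symbol held by 1 entry, then each passing member of 22 gene lists and 13 marker lists (567 genes), and the pathway genes IL4R, IL13RA1, IL13RA2, IL6R, IL6ST, STAT3, STAT6, CISH, SOCS1, SOCS3, ALOX15 and CCL26. A gene named by this rule is not reported here. Members and lists were chosen with earlier results of these data known. Coordinates and promoters came from RefSeq (GRCh38.p14). Figures were drawn with matplotlib 3.10.9.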

Additional observations from a re-analysis of the deposited data

Results flagged for a closer look

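Of the 64 single-gene results examined, 1 had a batch far from the other 5. For CISH, the log2 ratio of IL-4+IL-13 to IL-6 within batch 2 was 1.41, and the nearest other batch was at 3.81. The gap took 0.69 of the whole range of the 6 batches, above Dixon's critical value for 6 values. Chance alone flags about 1 in 20 such groups. In batch 2, CISH had 11.3 CPM under IL-4+IL-13 and 4.19 CPM under IL-6, the lowest and the highest level of their groups. ALOX15 and CSN1S1 were also lowest in batch 2 under IL-4+IL-13, at 126 and 0.135 CPM.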

How the results depend on the processing

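The 233 passing entries (157 higher under IL-4+IL-13, 76 higher under IL-6, 90 beyond a log2 fold change of 1) became 543 with DESeq2 (331, 212 and 145), 134 with all 24 libraries in the fit (96 and 38, with 82 beyond 1) and 15 with no replicate block, that is without pairing by batch (14, 1 and 15), of which 13 were among the 233. With batches 4 and 5 left out, chosen after the data were seen, 86 passed (63, 23 and 46). Leaving out each batch in turn gave 85 to 252 entries, with 64 to 153 higher under IL-4+IL-13, 21 to 99 higher under IL-6 and 49 to 93 beyond 1. The share higher under IL-4+IL-13 was 67.4% with all batches and 60.7% to 76.7% over these leave-one-out fits. Counts with the other scalings, filters and the first entry of each symbol stayed within 1.5 times, at 215 to 253, as did the 163 with batches 2 and 4 left out. Over 1018 pairs of a named gene and an alternative, 761 kept direction and side of the threshold, 243 lost the call, 9 gained one and 5 turned sign. The 5 were IL6R with filterByExpr (0.0014), with batches 4 and 5 left out (0.14) and without batch 5 (0.13, lowest of these fits -0.11), STAT3 without batch 1 (0.0069, lowest -0.083) and IL6ST without batch 5 (0.033, lowest -0.11). The causes were not tested. Depth limited genes near 0 CPM under IL-6, whose folds rest on a few counts.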

Other observations

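Some genes outside the fixed lists, chosen after their values were seen, are given as values with edgeR's adjusted p. PFKP, which encodes the platelet type of the glycolytic enzyme phosphofructokinase, averaged 461 CPM under IL-4+IL-13 and 173 CPM under IL-6 (log2 fold change 1.39 ± 0.07, SE, adjusted p = 6.4e-06, higher in 6 of 6 batches). PMCH, the gene of the neuropeptide precursor of melanin-concentrating hormone, averaged 47.2 and 9.74 CPM (2.38 ± 0.11, SE, adjusted p = 1.0e-05, higher in 6 of 6 batches). Against vehicle, PMCH stood at 2.31 with IL-4+IL-13 and at -0.12 with IL-6. SOST, which encodes the WNT inhibitor sclerostin, averaged 63.8 and 110 CPM (-0.78 ± 0.06, SE, adjusted p = 0.000287, lower in 6 of 6 batches). Receptor genes among the passing entries included HTR2C, a serotonin receptor, at 437 and 296 CPM (0.68 ± 0.12, SE, adjusted p = 0.0459), CCKAR, a cholecystokinin receptor, at 5.33 and 1.95 CPM (1.53 ± 0.20, SE, adjusted p = 0.00687), and PTGDR2, a prostaglandin D receptor, at 1.52 and 0.330 CPM (1.91 ± 0.36, SE, adjusted p = 0.0441). DUOXA1, which encodes a maturation factor of the DUOX oxidases, averaged 0.798 and 0.169 CPM (2.19 ± 0.35, SE, adjusted p = 0.0193).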
